A study of Mus musculus with 20 samples.

Results

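The genes described here are 10 regulators and targets of the YAP-TEAD transcription complex, out of 39179 genes counted in the series. They were taken by name and by no threshold on a measured value, although earlier results of these data were known when the list was made. The list holds the coactivator genes Yap1 and Wwtr1, the 4 genes of the DNA-binding TEAD family (Tead1, Tead2, Tead3 and Tead4), and the target genes Ccn2 (also called Ctgf), Ccn1 (also called Cyr61), Ankrd1 and Amotl2. All 10 had enough counts to be tested. The series is RNA sequencing of cultured, immortalised epithelial cells from the kidney of C57BL/6J mice, in 4 groups of 5 libraries. Rec cells carry the genotype label Fh1 wt re-expressed, the clones clone1 and clone19 carry the label Fh1 deletion, and Fh1_fl_fl cells carry the label Fh1 wt. All groups were grown in the same serum-supplemented medium with uridine. Fh1 encodes fumarate hydratase, the enzyme of the TCA cycle that turns fumarate into malate. Each deletion group is 1 clone, and the labels say neither from which clone Rec was made nor which part of Fh1 was removed, so a difference between a clone and Fh1_fl_fl cannot be told apart from a difference between clones.

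YAP, the product of Yap1, and TAZ, the product of Wwtr1, are coactivators that do not bind DNA themselves. TEAD proteins carry them to promoters and enhancers, where the complex switches on genes for growth, matrix signals and cell shape. In the Hippo pathway the MST kinases activate the LATS kinases, and LATS phosphorylates YAP and TAZ. This holds YAP and TAZ in the cytoplasm and marks them for breakdown. Several targets of the complex, Amotl2 and Lats2 among them, restrain it in turn. In kidney epithelium the pathway is known for its roles in tubule repair, fibrosis and cyst growth. The activity of YAP and TAZ is set largely at the protein, so transcript counts show how much message was present and not how active the complex was.

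Gene counts per library ran from 5988447 to 18972176. Levels below are in CPM, the count relative to the library size on the customary scale, with library sizes scaled by the trimmed mean of M-values (TMM), and levels of different genes are compared only per kilobase of exon. Whole-gene Fh1 counts averaged 71.3 ± 7.08 CPM in Rec, 112 ± 5.93 CPM in clone1, 84.7 ± 7.31 CPM in clone19 and 92.3 ± 6.16 CPM in Fh1_fl_fl (SD, n = 5 each). A count over the whole gene does not measure a deletion inside it, and so does not check the deletion label. Rec, labelled as re-expressed, had the lowest mean of the 4 groups. The count cannot tell message of the deleted gene from re-expressed message, so it does not show whether Fh1 message was added in Rec. The label of Rec was not checked in another way. All 10 epithelial markers were detected, and their summed level was 4633 to 5085 CPM in Rec, 2874 to 3623 CPM in clone1, 2540 to 2882 CPM in clone19 and 4107 to 4848 CPM in Fh1_fl_fl. The sum was thus lower in both clones than in Rec and Fh1_fl_fl. It is weighted to the most abundant markers and does not give the direction of each. The part of these markers in the results below was not tested. In RNA pooled over a culture, fewer cells with a message and less message per cell cannot be told apart. Markers of fibroblasts, pericytes and smooth muscle summed to 0.899 to 1.96 CPM in Rec, 1.68 to 3.96 CPM in clone1, 10.7 to 14.3 CPM in clone19 and 0.716 to 1.27 CPM in Fh1_fl_fl, with Lum and Pdgfrb at 0. Leukocyte markers reached at most 20.6 CPM and endothelial markers at most 9.79 CPM, both in clone19. Podocyte markers, nearly all of it Podxl, summed to 155 to 192 CPM in Rec, 176 to 266 CPM in clone1, 182 to 221 CPM in clone19 and 114 to 136 CPM in Fh1_fl_fl, so that they were lowest in Fh1_fl_fl without overlap. The part of these marker sets in the results was not tested either. Clone19 replicate 3 stood apart: 8.20% of its counts fell in the ribosomal RNA locus Gm42418, against a median of 0.314% over all libraries.

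Against Fh1_fl_fl, the complex's genes did not move as 1 block. Tead4 and Ccn1 were higher and Tead3 was lower in both clones and in Rec. Amotl2 was also higher in both clones, by more than 2-fold in clone19, and in Rec, where the call depended on the scaling. Ankrd1 was lower in clone1 and higher in clone19, and Ccn2 was lower in clone1. A gene was called changed at a Benjamini-Hochberg adjusted p under 0.05 over all 12671 genes tested, in edgeR's quasi-likelihood test, and over 2-fold when it passed edgeR's test against a 2-fold bound. In clone1 all 10 genes changed, 6 higher and 4 lower, where 78.6% of all tested genes changed, 38% higher and 40.5% lower. Tead4 and Ccn1 were called over 2-fold higher, as were 10.9% of tested genes (21.7% in either direction). In clone19, 7 changed, 6 higher and 1 lower, where 72.9% of tested genes changed, 36.8% higher and 36.1% lower. Ccn1 and Amotl2 were called over 2-fold higher, a call made for 8.2% of tested genes, with 7.28% over 2-fold lower and 15.5% in either direction. In Rec, 7 changed, 4 higher and 3 lower, where 70.8% of tested genes changed, 33.4% higher and 37.4% lower. With scaling to library totals the split in Rec was 3 higher and 5 lower, as Ccn2 and Tead2 gained a call and Amotl2 lost it, and in clone19 it was 5 higher and 2 lower. None of the 10 was called over 2-fold in Rec, against 11.1% of tested genes (3.61% higher and 7.44% lower). For clone19 and Rec, the share of the 10 genes that changed was thus close to that of all tested genes. The median size of the log2 change, sign left aside, was 0.56 over the 10 genes against 0.58 over all tested genes in clone1, 0.59 against 0.48 in clone19, and 0.23 against 0.44 in Rec. The 3 comparisons share the same 5 Fh1_fl_fl libraries. Scaling to library totals in place of TMM moved the median log2 change over all tested genes to -0.17 in clone1, -0.12 in clone19 and -0.17 in Rec, against -0.03, 0.00 and -0.03 under TMM, so small changes have to be read against that shift.

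**Figure D1:**
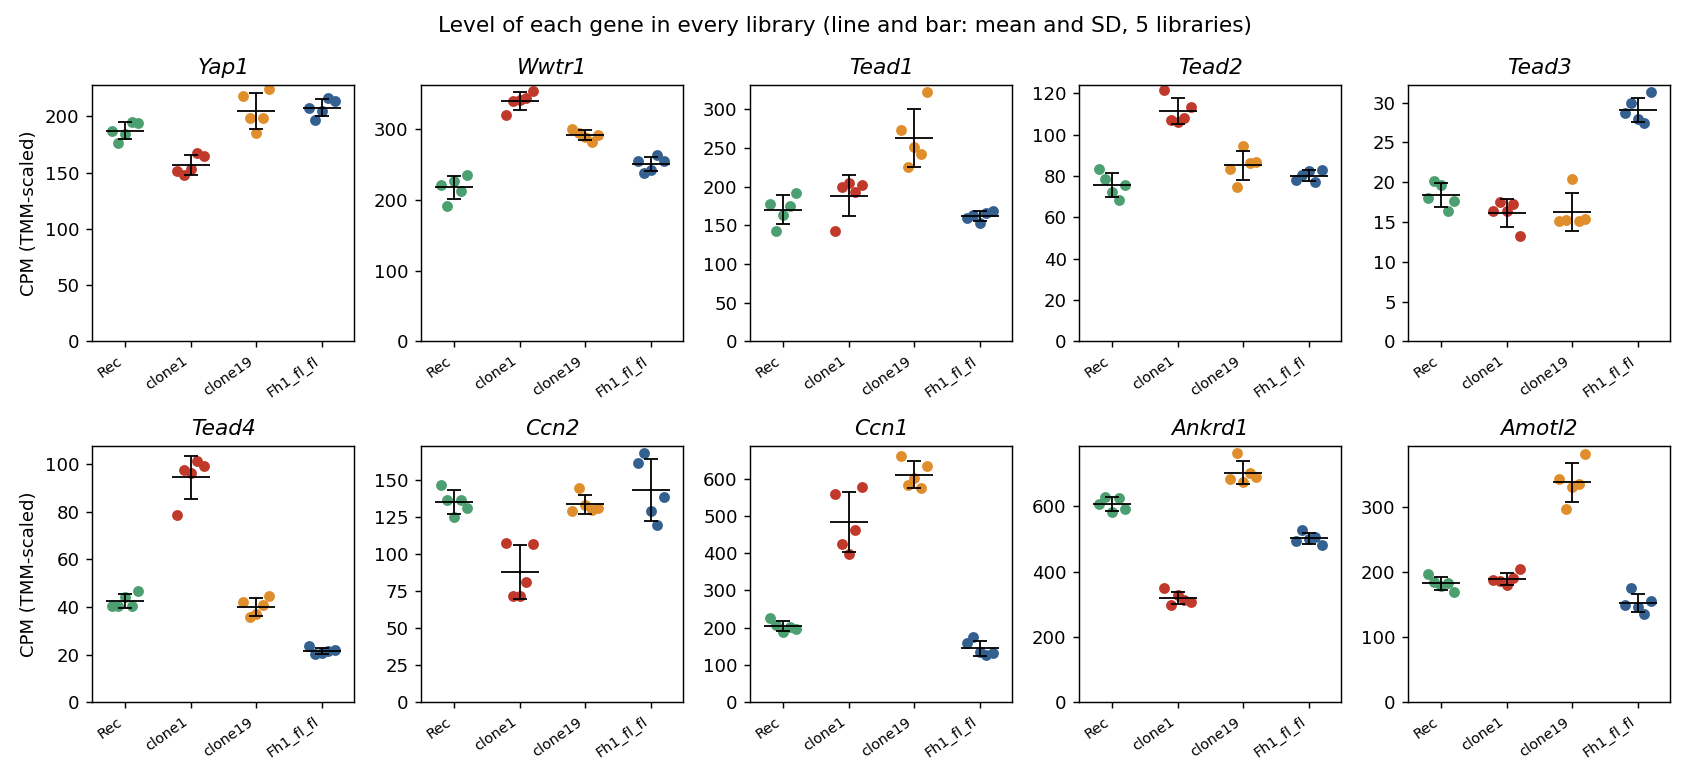
Level of each of the 10 genes in CPM on TMM-scaled library sizes (vertical axis, starting at 0) in every library of Rec, clone1, clone19 and Fh1_fl_fl; points are libraries, the line and bar the mean and SD over 5 libraries. The clone1 points for Tead4 (78.8 to 101 CPM) and the clone points for Ccn1 (398 to 662 CPM) lie above every other library of their gene, and the Fh1_fl_fl points for Tead3 (27.5 to 31.3 CPM) do the same.

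**Figure D2:**
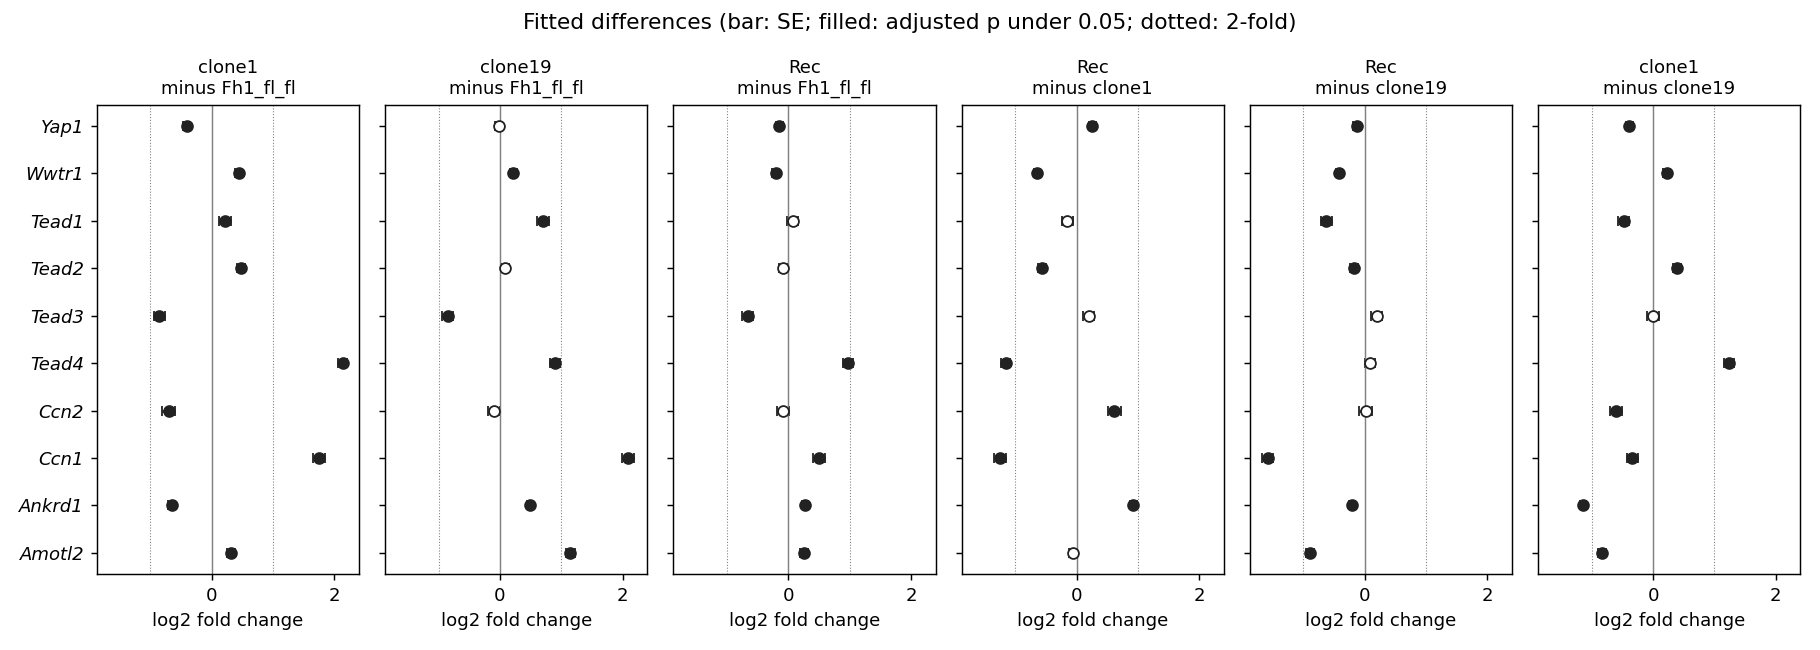
Fitted log2 fold change of each of the 10 genes (rows) in the 6 comparisons (panels), with SE bars, filled points for an adjusted p under 0.05 and dotted lines at 2-fold. Tead4 (2.13) and Ccn1 (1.75 and 2.08) reach furthest to the right in the panels of the clones against Fh1_fl_fl, and Ankrd1 lies on opposite sides of 0 in them (-0.65 and 0.49).

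TEAD proteins recognise the element GGAATG, which reads CATTCC on the other strand. To show where these 6 letters stand in the genes described here, the 250 bases before each RefSeq gene start (GRCm38.p6) were searched on both strands. Windows were at hand for 7 of the 10 genes, and a gene with several starts has several windows, which can overlap. Of their 10 windows 8 held a match, against 12.6% of 32851 such windows over all genes, and both Wwtr1 windows held the same match. The 6 genes with a match were Yap1, Wwtr1, Tead3, Ccn1, Ankrd1 and Amotl2. None of the 10 windows of these 7 genes held the AP-1 element TGANTCA, which 6.75% of all windows held. A match is a description of the letters and not a measured binding site. By the GENCODE gene coordinates given below, the windows of Ankrd1 and Amotl2 lie inside the gene. Their distances therefore hold for the RefSeq start only. The matches of the coactivators and targets are shown here with 12 flanking bases on each side, read 5′ to 3′ along the gene's strand, with the element in capitals. They lie at chr9:8004720-8004749 (minus strand, 141 bases before the start) for Yap1, chr3:57576029-57576058 (minus, 136 bases before the nearer of its 2 starts) for Wwtr1, chr3:145650071-145650100 (minus, 103 bases) for Ccn1, chr19:36120037-36120066 (minus, 210 bases) and chr19:36119950-36119979 (minus, 123 bases) for Ankrd1, and chr9:102717727-102717756 (plus, 65 bases) for Amotl2.
Yap1: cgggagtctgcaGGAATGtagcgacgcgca
Wwtr1: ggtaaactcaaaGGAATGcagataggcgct
Ccn1: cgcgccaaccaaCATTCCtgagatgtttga
Ankrd1, distal: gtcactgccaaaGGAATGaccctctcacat
Ankrd1, proximal: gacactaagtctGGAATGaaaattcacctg
Amotl2: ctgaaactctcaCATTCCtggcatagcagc

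The 2 coactivator genes moved in opposite directions in clone1. Yap1 (ENSMUSG00000053110, chr9:7931999-8004596, minus strand, GRCm38) had 187, 177, 185, 195 and 194 CPM in Rec, 152, 148, 153, 167 and 165 CPM in clone1, 218, 199, 185, 199 and 224 CPM in clone19, and 208, 197, 205, 216 and 213 CPM in Fh1_fl_fl. Clone1 lay below every other library. Yap1 fell by 0.41 on the log2 scale in clone1 against Fh1_fl_fl (SE 0.06, adjusted p = 3.19e-07, edgeR), while clone19 overlapped Fh1_fl_fl (-0.02, SE 0.06, adjusted p = 0.77). The small decrease in Rec against Fh1_fl_fl (-0.15, SE 0.06, adjusted p = 0.0205) lost its call without Fh1_fl_fl replicate 1, 4 or 5 or Rec replicate 2 (adjusted p 0.0525 to 0.111).

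Wwtr1 (ENSMUSG00000027803, chr3:57455649-57575910, minus strand), which encodes TAZ, had 221, 192, 227, 213 and 236 CPM in Rec, 319.8, 340.2, 341, 345 and 355 CPM in clone1, 301, 295, 289.5, 282 and 292 CPM in clone19, and 255, 238, 242, 264 and 255 CPM in Fh1_fl_fl. The 4 groups did not overlap, and each neighbouring pair in the order clone1, clone19, Fh1_fl_fl, Rec passed the test. Relative to Fh1_fl_fl, the log2 level was 0.44 higher in clone1 (SE 0.05, adjusted p = 3.15e-08) and 0.22 higher in clone19 (SE 0.05, adjusted p = 0.000772), while Rec lay on the other side of Fh1_fl_fl, at -0.20 (SE 0.05, adjusted p = 0.00143). With scaling to library totals the clone19 value was 0.09 and no longer called (adjusted p = 0.181).

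Per kilobase of exon, Wwtr1 was the more abundant coactivator message in every group: 45.5, 71.2, 61.0 and 52.5 CPM per kb in Rec, clone1, clone19 and Fh1_fl_fl, beside 20.2, 17.0, 22.1 and 22.4 CPM per kb for Yap1. Yap1 made up 30.8 ± 1.25% of the 2 coactivators in Rec, 19.2 ± 0.683% in clone1, 26.6 ± 1.37% in clone19 and 30.0 ± 0.339% in Fh1_fl_fl (SD, n = 5 each). The share was lower in each clone than in Fh1_fl_fl in all libraries (exact permutation test, two-sided, p = 0.00794 for each, the smallest that 5 against 5 allows, adjusted p = 0.0098 over 42 such tests), by 0.64 in clone1 and 0.17 in clone19 on the log2 scale. For Rec against Fh1_fl_fl the log2 difference was 0.04 (exact permutation p = 0.23, adjusted p = 0.254). Measured against the longest transcript in place of all exons, the share was 43.4%, 29.1%, 38.4% and 42.4% in the same groups, with Wwtr1 still the larger.

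Among the TEAD genes, which encode the DNA-binding partners, Tead4 differed most between groups. TEAD4 is best known from the early embryo, where it is needed for the trophectoderm. Tead4 (ENSMUSG00000030353, chr6:128224288-128300823, minus strand) had 40.3, 40.4, 44.0, 40.3 and 46.7 CPM in Rec, 78.8, 97.4, 96.3, 101 and 99.2 CPM in clone1, 42.3, 35.7, 36.9, 40.8 and 44.5 CPM in clone19, and 23.4, 20.2, 20.5, 21.3 and 22.0 CPM in Fh1_fl_fl. Clone1 lay above all other libraries and Fh1_fl_fl below all, with Rec and clone19 overlapping between them. Relative to Fh1_fl_fl, Tead4 was 4.38-fold higher in clone1 (log2 2.13, SE 0.08, adjusted p = 3.73e-19, edgeR). The increase was 1.86-fold in clone19 (log2 0.89, SE 0.08, adjusted p = 1.46e-10). For Rec it was 1.97-fold (log2 0.98, SE 0.08, adjusted p = 1.61e-11). Clone1 exceeded the 2-fold bound (adjusted p = 4.51e-14).

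Tead3 (ENSMUSG00000002249, chr17:28331671-28350817, minus strand), the family member best known from placenta, moved the other way. It had 18.0, 20.1, 19.7, 16.3 and 17.6 CPM in Rec, 16.3, 17.5, 16.4, 17.2 and 13.2 CPM in clone1, 15.1, 15.2, 20.5, 15.1 and 15.3 CPM in clone19, and 28.6, 29.9, 27.9, 27.5 and 31.3 CPM in Fh1_fl_fl. The Fh1_fl_fl libraries lay above all others, and Rec and the clones overlapped one another. Both clones differed from Fh1_fl_fl by -0.85 on the log2 scale, with an SE of 0.09 each and adjusted p-values of 2.12e-09 for clone1 and 4.87e-09 for clone19. The difference for Rec was -0.66 (SE 0.09, adjusted p = 1.82e-07). Without clone19 replicate 3, the library that stands apart and the highest of its group here, the clone19 value was -0.93.

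Tead1 and Tead2 each rose clearly in 1 clone. Tead1 (ENSMUSG00000055320, chr7:112679318-112906807, plus strand), the most broadly expressed member of the family, had 142 to 192 CPM in Rec, 143 to 205 CPM in clone1, 225 to 323 CPM in clone19 and 153 to 169 CPM in Fh1_fl_fl. Clone19 lay above all other groups, 0.70 above Fh1_fl_fl on the log2 scale (SE 0.09, adjusted p = 2.23e-07), and the remaining groups overlapped. The clone1 value of 0.22 (SE 0.09, adjusted p = 0.0368) held a call that was lost with scaling to library totals (0.08, adjusted p = 0.486) and without Fh1_fl_fl replicate 2 or clone1 replicate 2, 3 or 4 (adjusted p 0.0538 to 0.0915). Tead2 (ENSMUSG00000030796, chr7:45215753-45233644, plus strand), a member expressed early in development, had 68.3 to 83.5 CPM in Rec, 106 to 121 CPM in clone1, 74.8 to 94.4 CPM in clone19 and 77.2 to 83.1 CPM in Fh1_fl_fl. Clone1 lay above all other libraries, 0.47 above Fh1_fl_fl (SE 0.06, adjusted p = 1.49e-07), and clone19 (0.08, SE 0.06, adjusted p = 0.244) and Rec (-0.08, SE 0.06, adjusted p = 0.237) missed the threshold. With scaling to library totals the Rec value was -0.22 and called (adjusted p = 0.0034).

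Summed per kilobase, the 4 TEAD messages reached 42.9 ± 2.09 CPM per kb in Rec, 65.9 ± 3.22 in clone1, 50.7 ± 4.38 in clone19 and 39.0 ± 0.897 in Fh1_fl_fl (SD, n = 5 each). With TMM scaling, all 3 groups lay above Fh1_fl_fl in every library (exact permutation p = 0.00794, adjusted p = 0.0098 for each). The sum is no ratio within a library, so it depends on the scaling. It was not tested with scaling to library totals. Rec exceeded Fh1_fl_fl by 0.13 on the log2 scale. That other scaling moved Rec against Fh1_fl_fl from 0.07 to -0.06 for Tead1 and from -0.08 to -0.22 for Tead2. The small Rec excess has to be read against that shift. The make-up of the sum differed as well. Tead4 supplied 27.5 ± 1.43% in Rec, 39.9 ± 2.03% in clone1, 22.0 ± 1.22% in clone19 and 15.3 ± 0.884% in Fh1_fl_fl, and all 6 pairs of groups differed without overlap (exact permutation p = 0.00794, adjusted p = 0.0098 for each). Tead3 supplied 6.40%, 3.66%, 4.79% and 11.1% in the same groups, and Tead2 36.9%, 35.5%, 35.1% and 43.0%. Tead1 had its highest share in clone19, at 38.1 ± 2.56%, against 30.6 ± 0.922% in Fh1_fl_fl. In clone1, Tead4 was thus on average the most abundant TEAD message per kilobase of exon. In clone1 replicate 1, however, Tead2 (42.1%) came before Tead4 (36.4%). With the length of the longest transcript, Tead2 (37.7%) came before Tead4 (35.2%) in the clone1 mean.

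**Figure D3:**
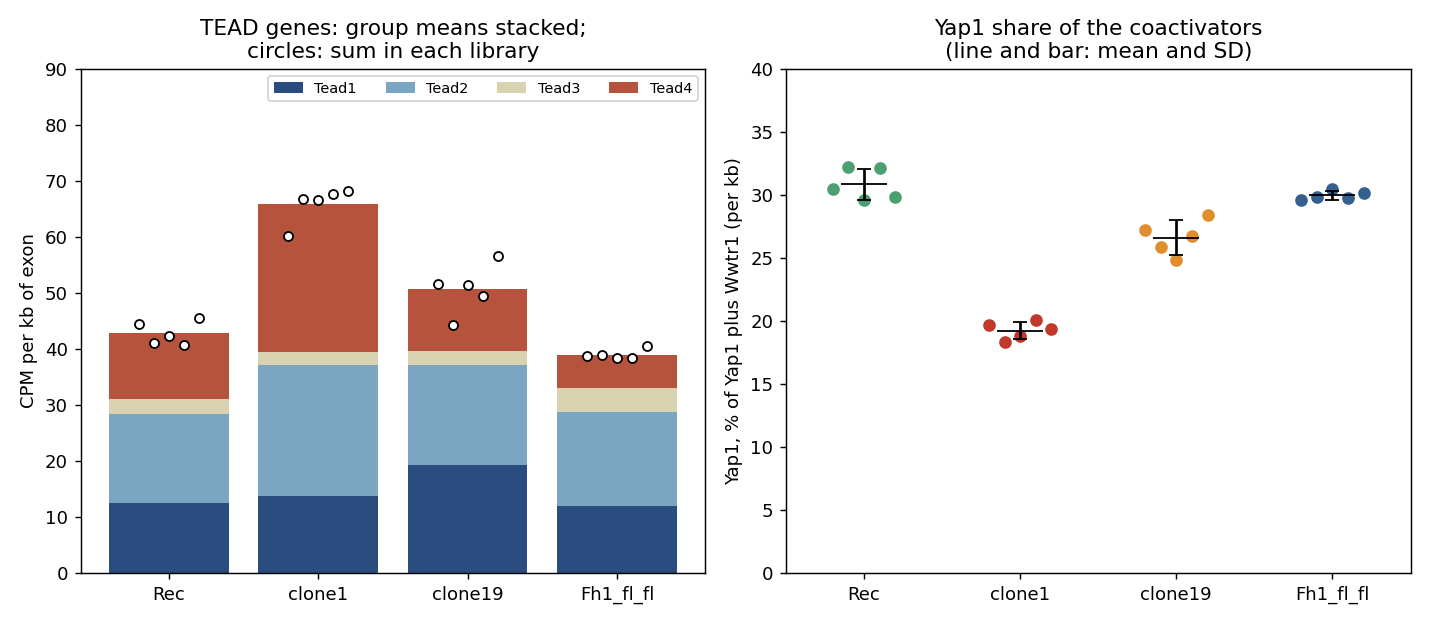
Left, the 4 TEAD genes in CPM per kb of exon, stacked as group means, with circles for the sum in each library; right, Yap1 as a percentage of Yap1 plus Wwtr1 per kb in each library, with the mean and SD. The stack is tallest in clone1 (65.9 CPM per kb), where the Tead4 block is the largest, and the Yap1 share is lowest there (19.2%).

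Of the 4 targets, Ccn1 rose most. Ccn1 (ENSMUSG00000028195, chr3:145646976-145649981, minus strand) encodes CYR61, a secreted matrix protein that binds integrins and is among the most used readouts of the complex. It had 226, 207, 189, 201 and 197 CPM in Rec, 559, 425, 398, 462 and 579 CPM in clone1, 662, 583, 601, 576 and 636 CPM in clone19, and 158, 174, 134, 125 and 131 CPM in Fh1_fl_fl. Both clones lay above every Rec library, and Rec above every Fh1_fl_fl library. Ccn1 was 3.36-fold above Fh1_fl_fl in clone1 (log2 1.75, SE 0.10, adjusted p = 2.91e-15) and 4.24-fold above it in clone19 (log2 2.08, SE 0.10, adjusted p = 1.57e-16). Both clones exceeded the 2-fold bound (adjusted p = 1.23e-08 and 1.93e-11). The increase in Rec was 1.41-fold (log2 0.50, SE 0.09, adjusted p = 3.7e-05). Because Ccn1 had the largest change among the targets, its whole window before the start is shown (chr3:145649986-145650235, minus strand, GRCm38.p6, read 5′ to 3′), with the TEAD element in capitals.
Ccn1 promoter: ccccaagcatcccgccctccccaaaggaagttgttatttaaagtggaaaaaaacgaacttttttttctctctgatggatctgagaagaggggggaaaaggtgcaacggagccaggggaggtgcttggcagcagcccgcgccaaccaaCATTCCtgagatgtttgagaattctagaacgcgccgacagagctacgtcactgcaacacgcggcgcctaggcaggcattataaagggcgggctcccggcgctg

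Ccn2, a close relative of Ccn1 and as widely used a readout, did not follow it. Ccn2 (ENSMUSG00000019997, chr10:24595442-24598683, plus strand) encodes CTGF, a secreted matrix protein tied to fibrosis. It had 147, 137, 125, 136 and 131 CPM in Rec, 107, 71.6, 71.9, 81.4 and 107 CPM in clone1, 129, 145, 133, 129.7 and 131 CPM in clone19, and 162, 168, 129, 119.8 and 138 CPM in Fh1_fl_fl. Clone1 lay below all other libraries and the other 3 groups overlapped. Ccn2 fell by 0.70 on the log2 scale in clone1 against Fh1_fl_fl (SE 0.10, adjusted p = 6.65e-07), and the difference was not called in clone19 (-0.10, SE 0.10, adjusted p = 0.376) or Rec (-0.09, SE 0.10, adjusted p = 0.454). With scaling to library totals those 2 values were -0.23 (adjusted p = 0.0411) and -0.22 (adjusted p = 0.049). An antisense gene, Gm15270, overlaps Ccn2 but had at most 8 counts in any library.

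The ratio of Ccn1 to Ccn2 per kilobase, which was not among the planned tests, separated the groups with little spread. It was 2.18, 2.15, 2.14, 2.09 and 2.14 in Rec, 7.39, 8.42, 7.85, 8.05 and 7.67 in clone1, 7.27, 5.71, 6.39, 6.29 and 6.86 in clone19, and 1.38, 1.47, 1.47, 1.48 and 1.34 in Fh1_fl_fl. No 2 groups overlapped. Clone1 replicates 1 and 5 had the highest levels of both genes within their group, and their ratios (7.39 and 7.67) were the lowest there. The log2 difference from Fh1_fl_fl was 2.46 in clone1, 2.18 in clone19 and 0.58 in Rec, and Rec differed from clone1 by -1.88 and from clone19 by -1.60 (exact permutation p = 0.00794 and adjusted p = 0.0098 for each).

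**Figure D4:**
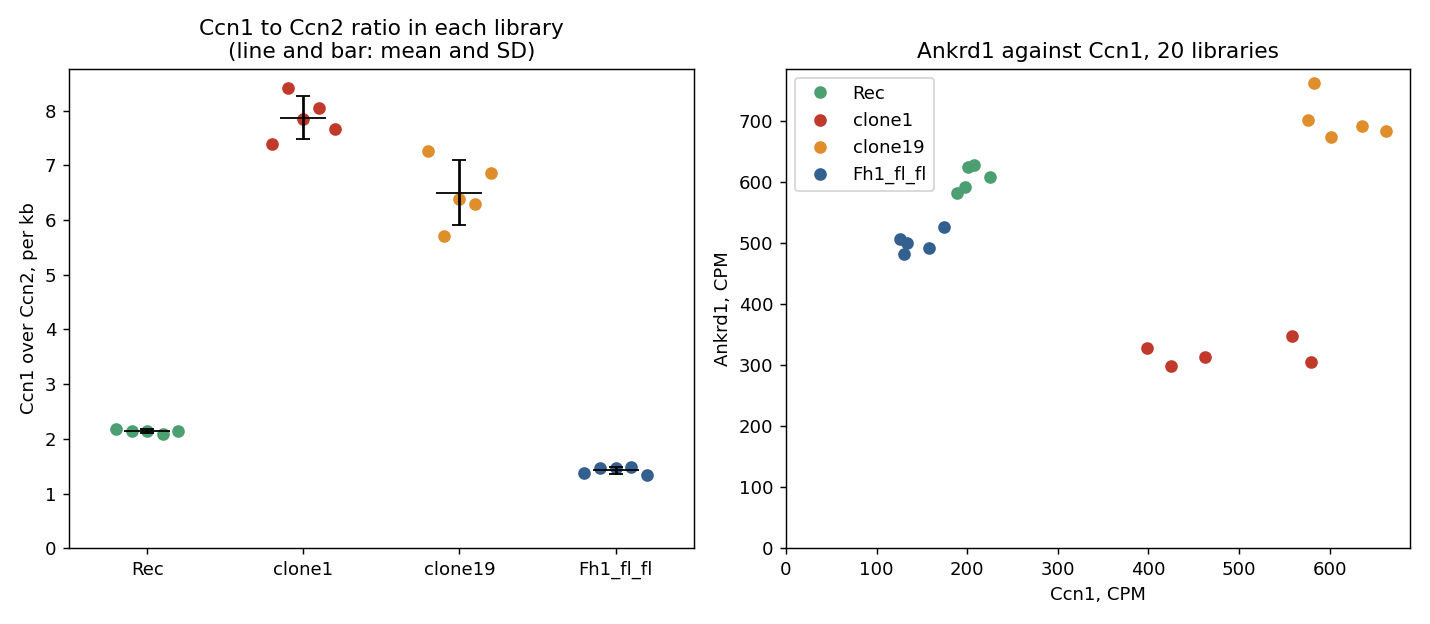
Left, the ratio of Ccn1 to Ccn2 (both in CPM per kb) in each library, with the mean and SD of 5 libraries; right, Ankrd1 against Ccn1 in CPM for the 20 libraries. The ratio lies between 5.71 and 8.42 in the clones and between 1.34 and 2.18 in the other libraries, and clone1 occupies the lower right of the right panel, with high Ccn1 (398 to 579 CPM) and the lowest Ankrd1 (299 to 349 CPM).

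Ankrd1 set the clones apart from each other. Ankrd1 (ENSMUSG00000024803, chr19:36111961-36120099, minus strand) encodes an ankyrin repeat protein of muscle sarcomeres and nuclei that serves as a YAP target in many epithelial cells. It had 608, 629, 582, 625 and 592 CPM in Rec, 349, 299, 328, 313 and 306 CPM in clone1, 685, 763, 675, 702 and 692 CPM in clone19, and 492, 527, 501, 507 and 482 CPM in Fh1_fl_fl. No 2 groups overlapped, and the order was clone19, Rec, Fh1_fl_fl, clone1. Against Fh1_fl_fl, Ankrd1 was 1.57-fold lower in clone1 (log2 -0.65, SE 0.05, adjusted p = 8.2e-12) and 1.40-fold higher in clone19 (log2 0.49, SE 0.05, adjusted p = 3.5e-09). Rec was higher by 0.27 on the log2 scale (SE 0.05, adjusted p = 3.5e-05). Per kilobase, Ankrd1 was the most abundant of the 4 target messages in Rec (210.4 CPM per kb, beside 101 for Ccn1) and Fh1_fl_fl (174 beside 71.5), and Ccn1 was the most abundant in clone1 (240.1 beside 111 for Ankrd1) and clone19 (303 beside 244).

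Amotl2 (ENSMUSG00000032531, chr9:102716672-102733418, plus strand) encodes an angiomotin family scaffold at cell junctions that binds YAP and holds it back. It had 196, 185, 179, 183 and 169.8 CPM in Rec, 187, 186, 179, 190.0 and 205 CPM in clone1, 343, 297, 331, 335 and 382 CPM in clone19, and 149, 175, 147, 136 and 156 CPM in Fh1_fl_fl. Clone19 lay far above the rest, clone1 lay above Fh1_fl_fl, and Rec overlapped both clone1 and Fh1_fl_fl. The fold against Fh1_fl_fl was 2.22 in clone19 (log2 1.15, SE 0.07, adjusted p = 2.33e-14), past the 2-fold bound (adjusted p = 0.0291), and the log2 change was 0.31 in clone1 (SE 0.07, adjusted p = 0.000133). Rec lay 0.26 above Fh1_fl_fl (SE 0.07, adjusted p = 0.00117). The Rec call was lost with scaling to library totals (0.13, adjusted p = 0.117).

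Rec was also compared with each clone, whose label differs from that of Rec by the re-expression of Fh1. The labels do not give the clone from which Rec was made. Here too, re-expression cannot be told apart from a difference between clones. Against clone1, 7 of the 10 genes changed, 3 higher and 4 lower, where 77.9% of all tested genes changed, 39.7% higher and 38.1% lower. Tead4 (-1.15, SE 0.07, adjusted p = 8.28e-14) and Ccn1 (-1.25, SE 0.09, adjusted p = 2.61e-12) were called over 2-fold lower in Rec, as were 12.9% of tested genes, with 9.12% over 2-fold higher and 22% in either direction. Ankrd1 (0.93, SE 0.05, adjusted p = 5.19e-15), Ccn2 (0.62, SE 0.10, adjusted p = 5.28e-06) and Yap1 (0.26, SE 0.06, adjusted p = 0.000202) were higher in Rec, and Wwtr1 (-0.64, SE 0.05, adjusted p = 2.2e-11) and Tead2 (-0.56, SE 0.06, adjusted p = 9.18e-09) were lower. The other 3 overlapped between Rec and clone1: Tead1 (-0.15, adjusted p = 0.154), Tead3 (0.20, adjusted p = 0.0593) and Amotl2 (-0.05, adjusted p = 0.465). Tead1 was called without clone1 replicate 1 (-0.25, adjusted p = 0.00831) or Rec replicate 5 (-0.22, adjusted p = 0.0443), and Tead3 without Rec replicate 4 (0.21, adjusted p = 0.0499) or clone1 replicate 2 (0.23, adjusted p = 0.0405).

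Against clone19, 7 of the 10 genes changed, all lower in Rec, where 73.8% of all tested genes changed, 35.8% higher and 38% lower. Ccn1 was called over 2-fold lower (-1.58, SE 0.10, adjusted p = 3.83e-14), as were 10.4% of tested genes, with 5.11% over 2-fold higher and 15.5% in either direction. Amotl2 (-0.89, SE 0.07, adjusted p = 4.22e-12), Tead1 (-0.63, SE 0.09, adjusted p = 1.19e-06), Wwtr1 (-0.42, SE 0.05, adjusted p = 9.35e-08) and Ankrd1 (-0.21, SE 0.05, adjusted p = 0.000627) were lower in Rec without overlap. Tead2 (-0.17, SE 0.06, adjusted p = 0.0216) and Yap1 (-0.13, SE 0.06, adjusted p = 0.0414) were called while their groups overlapped. The Tead2 call was lost without Rec replicate 3 or 4 or clone19 replicate 3 (adjusted p 0.0581 to 0.101), and the Yap1 call without any of 11 libraries, which were Rec replicates 1 to 4, clone1 replicates 1 and 5, clone19 replicates 1 and 5, and Fh1_fl_fl replicates 1, 3 and 5 (adjusted p 0.0541 to 0.159). Tead4 (0.08, SE 0.08, adjusted p = 0.332), Ccn2 (0.01, SE 0.10, adjusted p = 0.904) and Tead3 (0.19, SE 0.10, adjusted p = 0.0721) were not called. Tead3 was called higher in Rec without clone19 replicate 3 (0.28, adjusted p = 0.00758), Rec replicate 4 (0.24, adjusted p = 0.0333) or clone1 replicate 5 (0.20, adjusted p = 0.0387).

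The clones, which share a genotype label, differed from each other in 9 of the 10 genes, 3 higher and 6 lower in clone1, where 65.1% of all tested genes differed, 31.6% higher and 33.5% lower. Clone1 was higher than clone19 in Tead4 (1.24, SE 0.08, adjusted p = 1.09e-13), Tead2 (0.39, SE 0.06, adjusted p = 7.21e-06) and Wwtr1 (0.22, SE 0.05, adjusted p = 0.000755). It was lower in Ankrd1 (-1.14, SE 0.05, adjusted p = 2.5e-16), Amotl2 (-0.83, SE 0.07, adjusted p = 2.83e-11), Ccn2 (-0.60, SE 0.10, adjusted p = 1.39e-05), Tead1 (-0.48, SE 0.09, adjusted p = 7.01e-05), Yap1 (-0.39, SE 0.06, adjusted p = 1.42e-06) and Ccn1 (-0.33, SE 0.09, adjusted p = 0.0026). All 4 targets were thus lower in clone1 than in clone19, and Tead4 and Ankrd1 passed the 2-fold bound, as did 9.58% of tested genes, 4.79% in each direction. Only Ccn1 among the 9 had overlapping groups. Tead3 was at 16.1 ± 1.73 CPM in clone1 and 16.2 ± 2.36 CPM in clone19 (adjusted p = 0.98).

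Other genes of the Hippo pathway were read from a list of 29, of which 26 were tested. In clone1, 24 changed against Fh1_fl_fl, 10 higher and 14 lower, where 78.6% of all tested genes changed, 38% higher and 40.5% lower, with a median log2 change of -0.30 over the tested members beside -0.03 over all tested genes. In clone19, 21 changed, 13 higher and 8 lower, where 72.9% of all tested genes changed (36.8% higher, 36.1% lower), with a median of 0.18 beside 0.00, and with scaling to library totals 6 were higher. In Rec, 22 changed, 10 higher and 12 lower, where 70.8% of all tested genes changed (33.4% higher, 37.4% lower), with a median of -0.04 beside -0.03, and with that scaling 3 were higher. The direction of the LATS kinase genes was split. Lats2, a kinase that phosphorylates YAP and is itself a YAP target, had 36.1, 29.3, 30.5, 36.0 and 36.3 CPM in Rec, 62.7, 66.6, 63.4, 69.4 and 75.1 CPM in clone1, 62.6, 62.1, 68.9, 66.6 and 73.5 CPM in clone19, and 30.8, 29.6, 29.3, 30.6 and 31.3 CPM in Fh1_fl_fl. Both clones lay above Rec and Fh1_fl_fl without overlap, at 2.22-fold in clone1 (adjusted p = 4.12e-14) and 2.20-fold in clone19 (adjusted p = 1.12e-13), and Rec was not called against Fh1_fl_fl (adjusted p = 0.0725).

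Lats1, the other LATS kinase gene, averaged 152 ± 13.2 CPM in Rec, 72.0 ± 8.83 CPM in clone1, 114 ± 6.09 CPM in clone19 and 132 ± 7.18 CPM in Fh1_fl_fl (SD, n = 5 each), and was lower in both clones (adjusted p = 4.01e-11 and 0.0108). Sav1, the scaffold of the MST kinases, averaged 99.3 ± 4.50 CPM in Rec, 58.1 ± 2.74 CPM in clone1, 68.0 ± 7.52 CPM in clone19 and 114 ± 4.43 CPM in Fh1_fl_fl. Mob1b, a cofactor of the LATS kinases, averaged 215 ± 17.5 CPM in Rec, 123 ± 10.6 CPM in clone1, 124 ± 7.44 CPM in clone19 and 239.7 ± 9.16 CPM in Fh1_fl_fl. Sav1 and Mob1b fell in both clones without overlap with Fh1_fl_fl. Both were also lower in Rec without overlap, by less. Against Fh1_fl_fl the Rec values were -0.20 for Sav1 (SE 0.06, adjusted p = 0.00567, edgeR) and -0.15 for Mob1b (SE 0.06, adjusted p = 0.0333, edgeR). Mob1a, the paralog of Mob1b, was instead higher in Rec and both clones, at 320.3 ± 20.4 CPM in Rec (log2 0.32, SE 0.05, adjusted p = 2.63e-06), 361 ± 13.4 CPM in clone1 and 303 ± 7.62 CPM in clone19 against 257 ± 5.46 CPM in Fh1_fl_fl, although the clone19 call was lost with scaling to library totals (adjusted p = 0.0838). Of the MST kinase genes, Stk4 was lower in Rec (-0.48, SE 0.06, adjusted p = 8.06e-08) and in clone1 (-0.35, SE 0.06, adjusted p = 8.87e-06), and the clone19 calls of Stk3 and Stk4, both higher, were lost with that scaling (adjusted p = 0.319 and 0.233).

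Among the other listed components, Vgll3 stood out. It encodes a vestigial-like protein that binds TEAD proteins in place of YAP, and averaged 8.94 ± 0.581 CPM in Rec, 5.31 ± 1.16 CPM in clone1, 42.1 ± 3.13 CPM in clone19 and 2.004 ± 0.244 CPM in Fh1_fl_fl (SD, n = 5 each). That was 2.71-fold higher in clone1 (adjusted p = 1.26e-09), 21.1-fold in clone19 (adjusted p = 1.6e-21) and 4.50-fold in Rec (adjusted p = 7.09e-14). The largest decreases in clone1 were in Fat4, a giant cadherin upstream of the pathway (log2 -2.54, SE 0.25, adjusted p = 4.25e-10), Taok3, a kinase that activates MST (-1.85, SE 0.09, adjusted p = 1.27e-16), and Limd1, a LIM protein that binds LATS (-1.20, SE 0.06, adjusted p = 6.61e-16). All 3 were also lower in Rec than in Fh1_fl_fl: Fat4 at -5.14 (SE 0.33, adjusted p = 2.37e-13), Taok3 at -0.68 (SE 0.08, adjusted p = 2.58e-08) and Limd1 at -0.85 (SE 0.06, adjusted p = 1.33e-12). Fat4 averaged only 0.251 CPM in Rec, within the 0.158 to 0.501 CPM that 3 counts equal in a library. The size of its decrease there is therefore uncertain. Fat4 was higher in clone19 (0.45, SE 0.18, adjusted p = 0.0289), where its groups overlapped, and Taok3 was lower there (-0.56, SE 0.08, adjusted p = 7.09e-07). In clone19, Limd1 was also lower (-0.99, SE 0.06, adjusted p = 7.67e-14) and Rassf1, a tumour suppressor that binds MST, was higher (1.17, SE 0.08, adjusted p = 7.7e-13). Fat1 was higher in clone1 (0.89, SE 0.18, adjusted p = 7.62e-05), with a wide spread there of 306 ± 102 CPM.

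A wider list of targets was tested in full. It holds the 18 genes of a published YAP and TAZ signature of human tumours other than the 4 targets above. Lats2 and Ptpn14 stand in this list and in the Hippo list, and are counted in both. In clone1, 16 changed against Fh1_fl_fl, 9 higher and 7 lower, where 78.6% of all tested genes changed, and the median log2 change was 0.24 beside -0.03 over all tested genes. Of the 18, 7 were called over 2-fold higher and 3 lower, as were 10.9% of tested genes in each direction. In clone19, 15 changed, 9 higher and 6 lower, where 72.9% of all tested genes changed, with a median of 0.70 beside 0.00. There 7 were called over 2-fold higher and 2 lower, beside 8.2% and 7.28% of tested genes. In Rec, 16 changed, 5 higher and 11 lower, where 33.4% of all tested genes were higher and 37.4% lower, with a median of -0.61 beside -0.03. Against clone19, 1 was higher and 14 were lower in Rec (median -0.81 beside -0.02), where 35.8% of tested genes were higher and 38% lower. Against clone1, 4 were higher and 12 were lower (median -0.69 beside 0.01), where 39.7% of tested genes were higher and 38.1% lower. Of the 4 targets described before, Ccn1, Ankrd1 and Amotl2 were higher in Rec than in Fh1_fl_fl.

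Gadd45a, a stress-response gene, averaged 71.5 ± 5.77 CPM in Rec, 410.5 ± 28.4 CPM in clone1, 203 ± 13.9 CPM in clone19 and 26.5 ± 2.23 CPM in Fh1_fl_fl, which was 15.5-fold higher in clone1 (adjusted p = 7.3e-25), 7.68-fold in clone19 (adjusted p = 4.07e-22) and 2.70-fold in Rec (adjusted p = 1.24e-15). Nt5e, which encodes the ectonucleotidase CD73, had 17.8, 22.0, 19.5, 21.5 and 22.0 CPM in clone1, 45.2, 48.1, 41.4, 43.5 and 44.4 CPM in clone19 and 1.66, 1.66, 1.46, 1.57 and 0.576 CPM in Fh1_fl_fl. It had 0 counts in all 5 Rec libraries. Set against 3 counts over the whole group, Nt5e was at least 404-fold lower in Rec than in clone1, 878-fold lower than in clone19 and 27.4-fold lower than in Fh1_fl_fl. Foxf2, a forkhead factor, was also at 0 counts in Rec, at least 8.66-fold lower than in Fh1_fl_fl, and averaged 12.5 ± 2.16 CPM in clone1, 1.83 ± 0.556 CPM in clone19 and 0.470 ± 0.212 CPM in Fh1_fl_fl. The Fh1_fl_fl mean lies within the 0.158 to 0.501 CPM that 3 counts equal in a library. The size of the Foxf2 differences from Fh1_fl_fl is therefore uncertain. Crim1, a transmembrane protein that binds BMPs, was 5.05-fold higher in clone19 than in Fh1_fl_fl (adjusted p = 4.44e-18). It was also higher in clone1 (2.83-fold, adjusted p = 2.44e-14, edgeR) and Rec (1.34-fold, adjusted p = 0.000193, edgeR).

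Other signature genes fell. Rbms3, an RNA-binding protein, averaged 26.5 ± 2.72 CPM in Rec, 2.60 ± 0.777 CPM in clone1, 39.0 ± 2.56 CPM in clone19 and 57.7 ± 2.68 CPM in Fh1_fl_fl. Fjx1, the mammalian relative of the fly Four-jointed kinase, was 3.68-fold lower in clone1 (adjusted p = 3.24e-10) and 9.23-fold lower in clone19 (adjusted p = 9.36e-13) than in Fh1_fl_fl. F3, which encodes tissue factor, averaged 28.2 ± 1.69 CPM in Rec, 64.5 ± 3.69 CPM in clone1, 64.9 ± 6.92 CPM in clone19 and 102 ± 8.56 CPM in Fh1_fl_fl. Igfbp3, an IGF-binding protein, had 0 counts in clone1, at least 46.5-fold lower than in Fh1_fl_fl, where it averaged 2.90 ± 0.332 CPM.

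**Figure D5:**
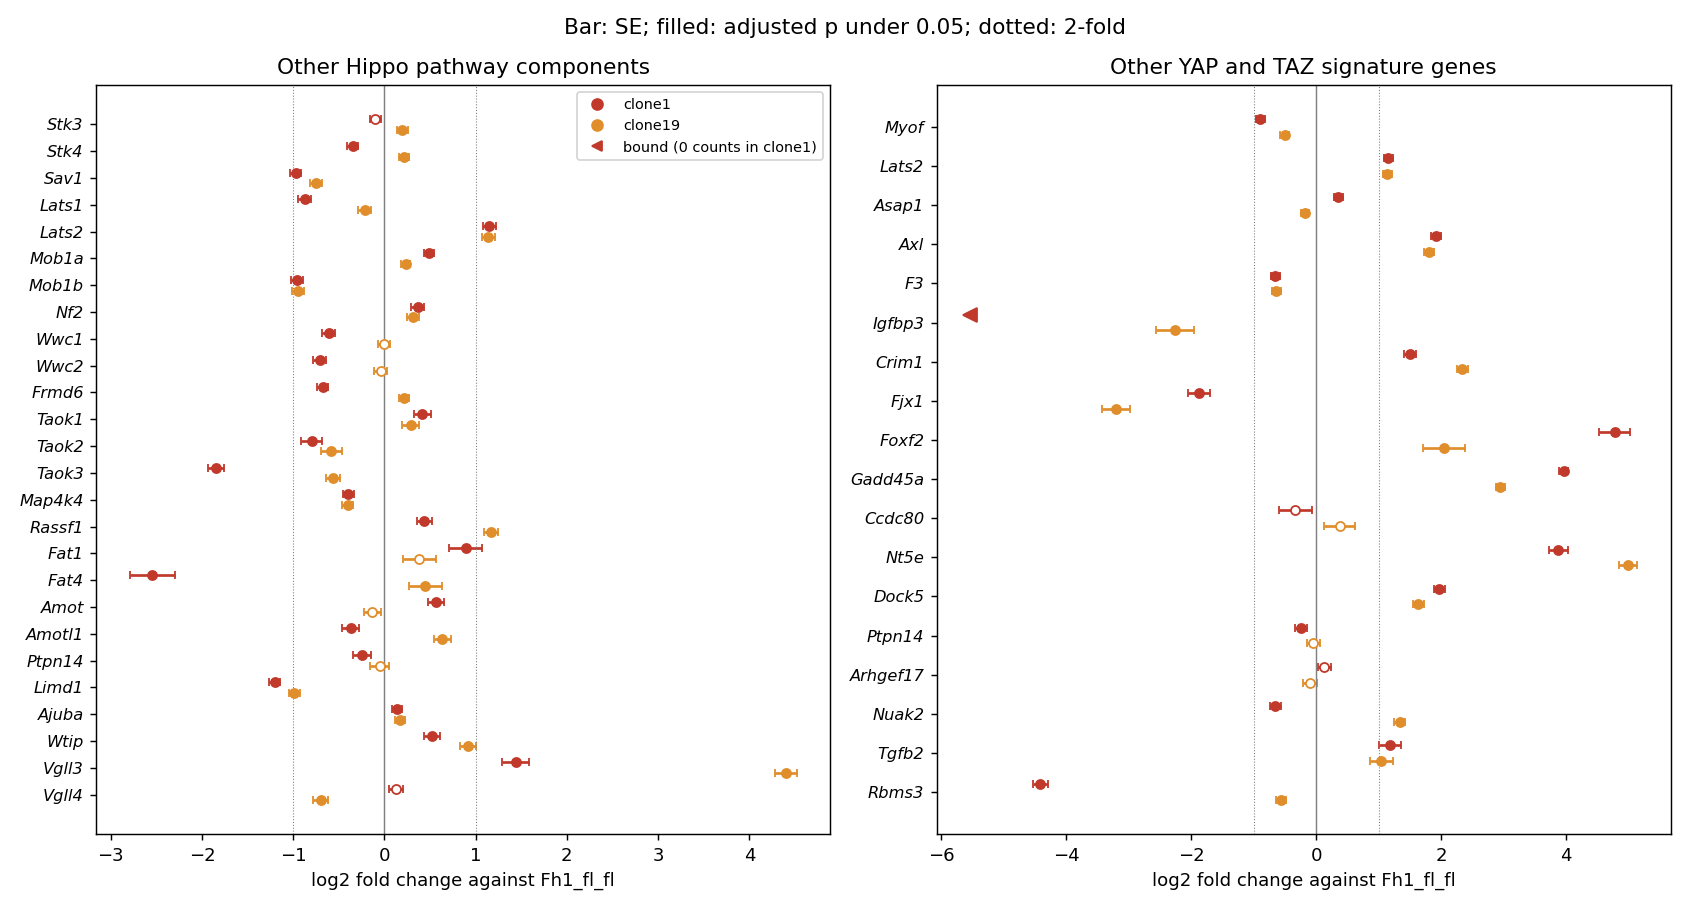
Fitted log2 fold change of each clone against Fh1_fl_fl for the tested genes of the Hippo list (left, 26 genes) and of the signature list (right, 18 genes), with SE bars, filled points for an adjusted p under 0.05 and dotted lines at 2-fold; the triangle marks the bound for Igfbp3, which had 0 counts in clone1. Points lie on both sides of 0 in each panel, with Vgll3 in clone19 (4.40) furthest right on the left panel and Nt5e in clone19 (4.99) and Foxf2 in clone1 (4.77) furthest right on the right panel. The Foxf2 value rests on few counts in Fh1_fl_fl (31 over the group).

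The genes whose pattern over the 20 libraries was most like that of a member were found by the root-mean-square difference of centred log2 CPM, for the 4 members whose group means spanned more than 1 on that scale. Adam8, a membrane metalloprotease, was closest to Tead4 (0.16, where the median over tested genes was 0.90), with 9.77 ± 1.07 CPM in Rec, 18.7 ± 0.212 CPM in clone1, 8.85 ± 1.35 CPM in clone19 and 4.62 ± 0.435 CPM in Fh1_fl_fl. Ldlrad3 was next (0.18). For Ccn1 the closest were Tmem206 (0.15, median 0.99) and Wnt7a (0.19). Wnt7a, a secreted Wnt ligand, averaged 108 ± 4.68 CPM in Rec, 268 ± 31.2 CPM in clone1, 288 ± 22.6 CPM in clone19 and 59.2 ± 4.57 CPM in Fh1_fl_fl. For Ankrd1 they were Srsf9 (0.10, median 0.60) and Eif1b (0.12), and for Amotl2 they were Txndc5 (0.10, median 0.62) and Nomo1 (0.12). These are descriptions over 20 libraries of 4 cell lines, which share their groups.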

How the data were processed

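RNA sequencing counted gene transcripts in 20 libraries, grouped by sample title and genotype label. The authors deposited raw read counts per Ensembl gene, 1 table per library, not normalized. The submitters' processing notes name GRCm38, TopHat2 2.0.4, DESeq 1.10.1 and HTSeq 0.5.3p9. What each did, the annotation release and the strand setting are not stated in the labels. The summary lines at the foot of each table (28.8 to 40.3% of a library not uniquely aligned, 3.28 to 6.73% in no feature, 0.462 to 0.653% ambiguous) entered neither library sizes nor tests. Reads shared by paralogs such as the TEAD genes can be lost that way, and without a strand setting overlapping antisense genes cannot be told apart. The limit that a count of 0 allows, 3 counts, equals 0.158 to 0.501 CPM in a library, for counting error only.

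Symbols and coordinates came from GENCODE M21 (GRCm38), promoter windows from RefSeq (GRCm38.p6). Counts were fitted in R 4.3.3 with edgeR 4.0.16: filterByExpr kept 12671 genes and excluded 26508, libraries were TMM-scaled, 1 quasi-likelihood model covered all 20 libraries, and 6 comparisons were tested, with glmTreat at a log2 bound of 1 for calls over 2-fold. The common biological coefficient of variation was 9.02%. Nothing in the labels tells whether replicates are separate cultures, so p-values measure only the spread between them, which may be technical. Replicates differed by more than sampling noise (chi-square per degree of freedom at least 2.04 in every pair). Ratios within a library and the TEAD sum were tested by exact two-sided permutation, 42 tests adjusted together. These 42 tests were not among the planned ones.

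The 10 genes and both lists were chosen with earlier results of these data known. Named by rule were all 10 genes, the kinase core, and from each list the 3 changed genes with the largest positive and the largest negative change in each clone. The scripts were tested on simulated counts in which 200 genes changed in 1 group, far fewer than in these data. That test therefore does not show how the scaling acts when most genes change. Alternatives were library-total and RLE scaling, no low-count filter, DESeq2 1.42.0, a replicate block, and each library left out. The ratios and the TEAD sum were not in the plan. Their runs with the transcript length or a library left out were added after seeing the data.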

Additional observations from a re-analysis of the deposited data

Results flagged for a closer look

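Among the 40 sets of 5 libraries (10 genes in 4 groups), 5 held a library far from the other 4 of its group by Dixon's criterion, where chance flags about 1 in 20. Tead1 was at 142.7 CPM in clone1 replicate 1, with the others at 193.6 to 205 CPM. Tead4 was low in the same library, at 78.8 CPM against 96.3 to 101.4 CPM. Without it, the log2 change of clone1 against Fh1_fl_fl was 0.34 for Tead1 and 2.23 for Tead4. Tead3 was at 13.18 CPM in clone1 replicate 5, with the others at 16.32 to 17.52 CPM. Tead3 was also at 20.46 CPM in clone19 replicate 3, against 15.08 to 15.34 CPM, in the library where Gm42418 took 8.20% of counts. Ccn2 was at 144.7 CPM in clone19 replicate 2, against 129.1 to 133.4 CPM.

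The other results set apart are differences between clone1 and clone19, which carry the same genotype label, each past the edgeR threshold for the difference itself. On the log2 scale, clone1 minus clone19 was 1.24 for Tead4, 0.39 for Tead2 and 0.22 for Wwtr1. It was -1.14 for Ankrd1, -0.83 for Amotl2, -0.60 for Ccn2, -0.48 for Tead1, -0.39 for Yap1 and -0.33 for Ccn1. With 1 clone each side, a difference between clones cannot be told apart from any other difference between the cultures.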

How the results depend on the processing

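Of 60 tests of the 10 genes, 47 were called, and 41 of these kept their direction and side of the threshold under every alternative run; 6 lost the call under at least 1, as given beside them, and no called value reversed. Without the filter on low counts, 3 of them lost it: Yap1 in Rec against Fh1_fl_fl (adjusted p = 0.0529, edgeR) and against clone19 (0.25), and Tead2 in Rec against clone19 (0.131). Of 13 uncalled tests, 6 were called under at least 1 alternative. Counts of changed genes stayed within 1.5 times throughout (6 to 8 of 10 for Rec against Fh1_fl_fl, 5 to 7 against clone19). With scaling to library totals the share of higher genes among all changed genes in Rec against Fh1_fl_fl was 36.6% in place of 47.2%, and the uncalled values of Tead2 in clone19 (-0.044) and Tead1 in Rec (-0.061) against Fh1_fl_fl reversed. The uncalled Tead3 difference between clone1 and clone19 was 0.020 under RLE scaling, 0.016 without the filter and 0.021 by DESeq2. Leaving out each library in turn, the uncalled results that reversed ranged as follows: Ccn2 in Rec against clone19 from -0.014 to 0.046, Tead3 in clone1 against clone19 from -0.037 to 0.11, Yap1 in clone19 against Fh1_fl_fl from -0.054 to 0.024, and the share of Tead2 among TEAD messages in clone1 against clone19 from -0.055 to 0.041 on the log2 scale.

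The numbered replicates do not pair the samples: deviations of same-numbered libraries correlated at -0.16 to 0.13 (median 0.01, 4 of 30 pairs over 0.1), and 2 of 20 libraries correlated best with their own number. With the replicate block, 10, 7 and 7 of the 10 genes changed in clone1, clone19 and Rec against Fh1_fl_fl, as without it, and no call of a member changed. Depth limits the fold of Nt5e, Foxf2 and Igfbp3 to bounds in the groups where they had 0 counts.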
